A study of Mus musculus with 15 samples.

Results

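Glycolysis, the export of its product lactate and the response to low oxygen were followed through 36 genes in optic tissue grown from mouse embryonic stem cells. The genes were listed by symbol and looked up in the deposited expression table. All 36 were found, each as 1 entry among 23244, and all 36 lay among the 13845 genes with enough reads to be tested. By role they comprised 2 glucose transporters, 2 hexokinases, 6 genes of upper glycolysis, 7 of lower glycolysis, 2 lactate dehydrogenases, 3 pyruvate dehydrogenase kinases, 2 regulators of fructose bisphosphate, 3 monocarboxylate transporters and 9 hypoxia response genes.

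The tissue came from EB5 Rx::GFP+/- cells, an embryonic stem cell line with 1 reporter allele for the eye field gene Rx, grown by SFEBq, a culture in which cells reaggregate in wells and self-organize with Matrigel. All 5 groups of 3 libraries share this line, the 2i medium of the stem cells (CHIR99201 and PD184352 with LIF in the labels, where the study's methods name another MEK inhibitor in place of PD184352) and GFP-guided dissection at Day 10. Day 10 Rx::GFP+ tissue was the starting neural retina epithelium. The +Wnt explants received CHIR99201, an inhibitor of GSK3, at 3 µM for 24 h and at 1 µM afterwards, towards retinal pigmented epithelium (RPE). The +Fgf explants received human recombinant bFgf at 5 ng/ml together with 10% FBS, towards neural retina (NR), and both were collected at Day 12 and Day 15. The labels give serum for +Fgf only, so effects of Fgf and of serum cannot be told apart, and no unstimulated explants of Day 12 or Day 15 are among the samples, so effects of stimulation and of time in explant culture cannot be told apart.

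Cells take up glucose through transporters of the Slc2a family, trap it with hexokinase and split it in a chain of enzymes that ends in pyruvate. Lactate dehydrogenase turns pyruvate into lactate, which leaves or enters the cell through monocarboxylate transporters, while pyruvate dehydrogenase kinases hold pyruvate back from the mitochondrion. When oxygen is short, hydroxylases of the Egln family no longer mark HIF transcription factors for destruction, and HIF then raises many genes of this pathway. Retina is known for making lactate even where oxygen is present, and the pigmented epithelium is known for passing glucose and lactate between blood and retina.

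Counted reads ranged from 12556998 to 16175450 per library, and 1 read was worth between 0.0620 and 0.0764 CPM, a read count scaled to library size by the authors. The libraries of a group are described as biological replicates. At Day 15, marker genes of neural retina progenitors and of pigmented epithelium followed the labels. Summed CPM of 8 neural retina progenitor genes ran from 2449 to 2555 in Day 15 +Fgf and from 628 to 672 in Day 15 +Wnt, with none of the 8 at 3 reads or fewer throughout a group. Summed CPM of 10 pigmented epithelium genes ran from 294 to 382 in Day 15 +Fgf and from 7046 to 9057 in Day 15 +Wnt, with 2 and 1 of the 10 at 3 reads or fewer, and Rpe65 of the mature epithelium had no read in Day 15 +Wnt. The 10 pigmented epithelium genes summed to 1415 to 1945 in Day 10 tissue, above the 541 to 576 of Day 12 +Fgf. Genes of retinal ganglion cells and early neurons, 8 in all, did not follow the labels at Day 12. They summed to 315 to 349 in +Fgf and 588 to 833 in +Wnt. At Day 15 they summed to 1834 to 1978 in +Fgf and 1367 to 1689 in +Wnt. In whole tissue, fewer cells of a type and less RNA per cell cannot be told apart.

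The steps from Day 12 to Day 15 asked what changes as each tissue matures, and most of the 36 genes rose whichever the stimulation. In Day 15 against Day 12 +Fgf, 31 rose and 1 fell, against a background over all tested genes of 27.2% higher and 29.9% lower (57.1% in either direction). In Day 15 against Day 12 +Wnt, 32 rose and 1 fell, against 32.5% higher and 35.5% lower (68.0% in either direction). The median log2 change of the 36 genes was 1.15 in +Fgf and 1.32 in +Wnt, where the median over all tested genes was -0.019 and -0.021. Both comparisons use separate libraries, and 31 genes rose in both, as did 17% of all tested genes. Car9 is among the risers in +Fgf, and it entered the test through the Day 15 +Fgf libraries alone, so the filter on low values favoured a rise for it. A gene was called when its adjusted p in limma, a linear model on log2 values with Benjamini-Hochberg adjustment over all tested genes, was under 0.05. All adjusted p are from this model unless another tool is named, log2 values are given ± SE, and differences between stimulations are +Fgf minus +Wnt.

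The question of the earlier step, from Day 10 to Day 12, was which genes respond to stimulation, and fewer members were called there. In Day 12 +Fgf, 16 were higher and 6 lower than at Day 10 (27.9% and 27.8% of all tested genes, 55.7% in either direction). The median log2 change of the 36 genes was 0.29. Slc16a8 is among the 6 lower ones. None of its +Fgf libraries passed the filter on low values, so the filter favoured its fall. In Day 12 +Wnt, 18 were higher and 2 lower (30.6% and 29.6%, 60.2% in either direction), with a median of 0.34, and both Day 12 comparisons share the Day 10 libraries. The share of members called in either direction at this step, 61.1% and 55.6%, was close to that of all genes. At each of the 4 steps in time, which share the libraries of Day 10 and of Day 12, 11 of the 36 genes and 5.61% of all tested genes rose. The 11 are Slc2a1, Hk1, Pfkm, Aldoa, Tpi1, Pdk2, Slc16a3, Bnip3, Egln3, Ankrd37 and P4ha1. Of these, Aldoa, Tpi1 and Egln3 lost their Day 12 +Fgf call with the RNA integrity number (RIN) of each library as a covariate (0.27, adjusted p = 0.232, 0.47, adjusted p = 0.0708 and 0.27, adjusted p = 0.44). With the same covariate Pfkm lost its call in Day 15 against Day 12 +Fgf (0.25, adjusted p = 0.0656).

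**Figure D1:**
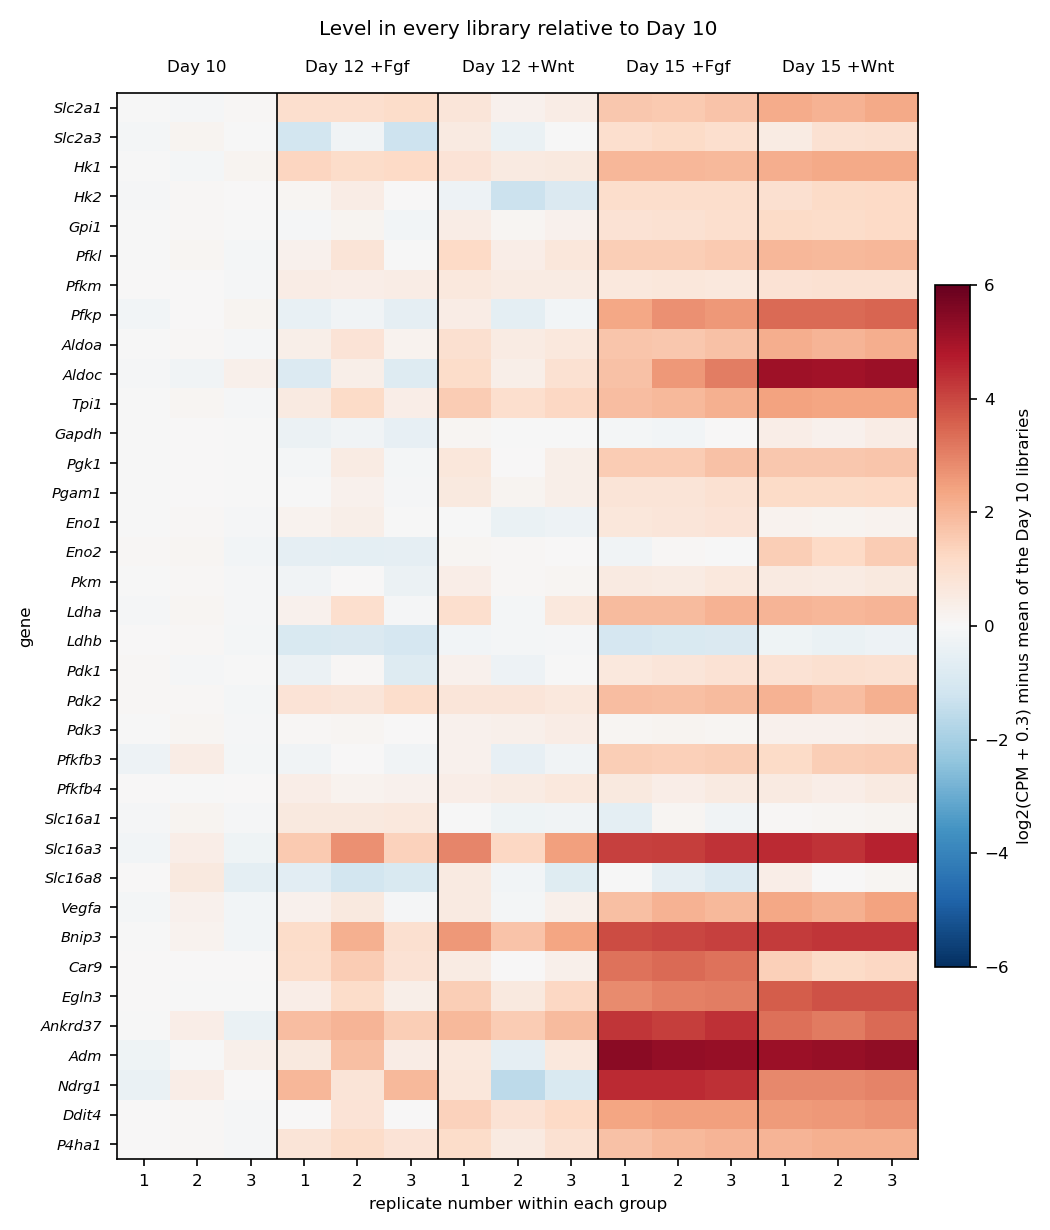
Level of each of the 36 genes (rows) in each of the 15 libraries (columns, by group and replicate number) as the difference in log2(CPM + 0.3) from the mean of the 3 Day 10 libraries, red for higher and blue for lower. The Day 15 columns are mostly red in both stimulations, with Ldhb and Slc16a1 among the exceptions.

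The 17 enzyme genes from hexokinase to lactate dehydrogenase held 0.948 ± 0.0207% (SD, n = 3) of all counted reads at Day 10, 0.969 ± 0.159% in Day 12 +Fgf and 1.19 ± 0.171% in Day 12 +Wnt. At Day 15 they held 1.78 ± 0.104% in +Fgf and 2.16 ± 0.0664% in +Wnt. Every Day 15 library lay above every Day 12 library, and the 3 +Wnt libraries of Day 15 lay above the 3 of +Fgf.

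Of the glucose transporters, Slc2a1 (GLUT1, chr4:119108711-119137983, plus strand of GRCm38), the main glucose transporter of the pigmented epithelium and of blood-tissue barriers, rose at each step. Slc2a1 was at 417, 397 and 442 CPM in Day 10 tissue, 837, 845 and 899 in Day 12 +Fgf and 702, 504 and 576 in Day 12 +Wnt. At Day 15 Slc2a1 stood at 1267, 1238 and 1384 in +Fgf and 1956, 1773 and 2019.7 in +Wnt. It was higher in +Fgf than in +Wnt at Day 12 without overlap (0.55 ± 0.09, adjusted p = 6.34e-05), and at Day 15 the order was turned, again without overlap (-0.56 ± 0.09, adjusted p = 2.53e-05), a call lost with RIN as a covariate (-0.36, adjusted p = 0.0749). The rise from Day 12 to Day 15 was 0.59 ± 0.09 in +Fgf and 1.70 ± 0.09 in +Wnt on the log2 scale, and the difference between these changes passed the test (-1.11 ± 0.12, adjusted p = 1.97e-06).

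Slc2a3 (GLUT3, chr6:122727809-122801640, minus strand), a high-affinity transporter typical of neurons, was at 119.8, 146 and 128 CPM in Day 10 tissue, 60.1, 112 and 54.9 in Day 12 +Fgf and 191, 98.0 and 127 in Day 12 +Wnt. At Day 15 Slc2a3 stood at 263, 289 and 262 in +Fgf and 186, 246 and 256 in +Wnt. Day 12 +Fgf fell below Day 10 (-0.86 ± 0.23, adjusted p = 0.00457), with no overlap, and +Fgf then rose by 1.91 ± 0.23 to Day 15 against 0.76 ± 0.23 in +Wnt (difference 1.15 ± 0.33, adjusted p = 0.00806). Day 15 +Fgf and +Wnt differed by 0.26 ± 0.23 (adjusted p = 0.336, 95% interval -0.23 to 0.74). Without Day 12 +Wnt replicate 2 the rise in +Wnt was 0.54 on the log2 scale and missed the threshold (adjusted p = 0.0545). The ratio of Slc2a1 to Slc2a3 CPM was 13.9, 7.54 and 16.4 in Day 12 +Fgf against 3.68, 5.15 and 4.52 in Day 12 +Wnt, and at Day 15 it was 4.82, 4.29 and 5.28 in +Fgf against 10.5, 7.20 and 7.89 in +Wnt.

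Hexokinases trap glucose in the cell as its phosphate, and Hk2 (chr6:82725025-82774454, minus strand) is the form most often raised in growing and hypoxic cells. Hk2 was at 55.3, 61.0 and 59.1 CPM in Day 10 tissue, 63.9, 78.6 and 59.5 in Day 12 +Fgf and 47.1, 23.7 and 31.5 in Day 12 +Wnt. At Day 15 Hk2 stood at 123, 123 and 122 in +Fgf and 113, 132 and 133 in +Wnt. In Day 12 +Wnt all 3 libraries were below the 3 of Day 10 (-0.83 ± 0.16, adjusted p = 0.000359) and below Day 12 +Fgf, and at Day 15 the difference between stimulations was -0.04 ± 0.16 (95% interval -0.38 to 0.31). Hk1, the form of most adult tissues including nerve, rose at every step, from a mean of 28.5 ± 3.20 CPM (SD, n = 3) at Day 10 to 112 ± 2.00 in Day 15 +Fgf and 135 ± 5.74 in Day 15 +Wnt. Its rise from Day 12 to Day 15 was larger in +Wnt (difference -0.82 ± 0.11, adjusted p = 1.59e-05), and so was that of Hk2 (-1.06 ± 0.23, adjusted p = 0.00121), the latter a call lost with RIN as a covariate (-0.51, adjusted p = 0.289). The Hk1 to Hk2 CPM ratio went from 0.501, 0.424 and 0.543 at Day 10 to 0.923, 0.917 and 0.897 in Day 15 +Fgf and 1.13, 1.05 and 1.04 in Day 15 +Wnt.

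In upper glycolysis, from glucose phosphate to its split products, all 6 genes rose from Day 12 to Day 15 in both stimulations, as did 17% of all tested genes. All 6 were lower in Day 15 +Fgf than in Day 15 +Wnt, as were 30.6% of all tested genes. With RIN as a covariate the difference at Day 15 held for Pfkm and Aldoc, and it was also lost for Gpi1 when either of 2 libraries was left out (-0.19 to -0.18) and for Pfkl when any of 4 was left out (-0.45 to -0.43). Aldoc (chr11:78322968-78327781, plus strand), the aldolase of neurons and glia, had the largest log2 difference between the stimulations at Day 15 among them. It was at 3.95, 3.61 and 5.20 CPM in Day 10 tissue, 2.22, 5.48 and 2.30 in Day 12 +Fgf and 9.44, 5.43 and 8.08 in Day 12 +Wnt. At Day 15 Aldoc stood at 14.9, 26.9 and 37.8 in +Fgf and 153, 147 and 157 in +Wnt. All 3 Day 15 +Wnt libraries stood above the 12 others, and the Day 15 +Fgf libraries differed among themselves, with replicate 3 the highest. The change to Day 15 was 2.90 ± 0.31 in +Fgf and 4.30 ± 0.31 in +Wnt (difference -1.40 ± 0.44, adjusted p = 0.0156, and -0.50, adjusted p = 0.628 with RIN as a covariate), and Day 15 +Fgf was below +Wnt by a log2 difference of -2.61 ± 0.31 (adjusted p = 1.32e-06).

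Aldoc was higher in Day 12 +Wnt than at Day 10 (0.78 ± 0.31, adjusted p = 0.0396), a call lost under 10 of 18 alternatives, among them leaving out any of 4 libraries (0.62 to 0.74). For Aldoa, the aldolase of most other tissues, the ratio to Aldoc in CPM fell from 99.2, 116 and 71.6 at Day 10 to 11.7, 10.9 and 11.5 in Day 15 +Wnt. Pfkp (chr13:6579768-6648777, minus strand), the platelet-type subunit of phosphofructokinase, which commits sugar to glycolysis, was at 10.1, 11.2 and 12.4 CPM in Day 10 tissue, 8.24, 9.56 and 7.60 in Day 12 +Fgf and 15.5, 7.31 and 9.80 in Day 12 +Wnt. At Day 15 Pfkp stood at 57.7, 77.7 and 69.2 in +Fgf and 120, 120.4 and 129.6 in +Wnt. Its Day 15 values were all above its earlier ones, by 2.96 ± 0.18 in +Fgf and 3.54 ± 0.18 in +Wnt, and +Wnt was higher than +Fgf at Day 15 (-0.86 ± 0.18, adjusted p = 0.000544, and -0.36, adjusted p = 0.386 with RIN as a covariate). The liver-type subunit Pfkl and the muscle-type Pfkm rose from Day 12 to Day 15 by less, 1.18 ± 0.17 and 0.23 ± 0.05 in +Fgf and 1.20 ± 0.17 and 0.36 ± 0.05 in +Wnt. The rise of Pfkm in +Fgf was lost with RIN as a covariate (0.25, adjusted p = 0.0656). Gpi1, which turns glucose phosphate into fructose phosphate, rose by 0.95 ± 0.07 in +Fgf and 0.87 ± 0.07 in +Wnt.

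All 7 genes of lower glycolysis, which yields ATP and pyruvate, rose from Day 12 to Day 15 in both stimulations, as did 17% of all tested genes. The rise of Eno2 in +Fgf was lost with RIN as a covariate (0.51, adjusted p = 0.0687). The log2 rises ran from 0.24 ± 0.07 (Gapdh) to 1.50 ± 0.15 (Pgk1) in +Fgf and from 0.34 ± 0.09 (Pkm) to 1.34 ± 0.09 (Eno2) in +Wnt. Tpi1, which interconverts the split products, was the member of this group that rose at all 4 steps, from 345 ± 27.9 CPM at Day 10 to 1358 ± 122 in Day 15 +Fgf and 1796 ± 45.0 in Day 15 +Wnt. Pgam1, which moves a phosphate within the chain, rose from Day 12 to Day 15 by 0.77 ± 0.09 in +Fgf and 0.78 ± 0.09 in +Wnt, and Pgk1, which forms ATP, by 1.31 ± 0.15 in +Wnt.

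The enolases Eno1 and Eno2 had opposite signs in the difference between the stimulations at Day 15. Eno1 (chr4:150236721-150248879, plus strand), the form found in most tissues, was at 1065, 1122 and 1037 CPM in Day 10 tissue, 1233, 1381 and 1048 in Day 12 +Fgf and 1053, 816 and 860.3 in Day 12 +Wnt. At Day 15 Eno1 stood at 1721, 1752 and 1896 in +Fgf and 1247, 1185 and 1224 in +Wnt. It was higher in +Fgf than in +Wnt at Day 12 (0.42 ± 0.09, adjusted p = 0.000861) and at Day 15 (0.55 ± 0.09, adjusted p = 3.93e-05), the only gene of both parts of glycolysis with this direction at Day 15. Its fall in Day 12 +Wnt (-0.25 ± 0.09, adjusted p = 0.0254) was lost without Day 10 replicate 2, Day 12 +Wnt replicate 2 or Day 12 +Wnt replicate 3 (-0.22 to -0.17). Eno2 (chr6:124760053-124769673, minus strand), the form known as neuron-specific enolase, was at 27.1, 28.6 and 23.2 CPM in Day 10 tissue, 17.8, 17.6 and 18.0 in Day 12 +Fgf and 28.1, 27.2 and 26.7 in Day 12 +Wnt. At Day 15 Eno2 stood at 22.9, 27.5 and 25.4 in +Fgf and 74.4, 60.2 and 75.3 in +Wnt. The 3 Day 15 +Wnt libraries were above all 12 others, and those of Day 15 +Fgf lay beside the Day 10 values, with a log2 difference of -1.45 ± 0.09 between +Fgf and +Wnt (adjusted p = 6.71e-10). Its change to Day 15 differed between the stimulations (-0.84 ± 0.13, adjusted p = 6.88e-05).

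Gapdh, an oxidizing step of glycolysis that is also widely used to scale PCR assays, ranged from 2341 to 4388 CPM among the 15 libraries. It was lower in +Fgf than in +Wnt at Day 12 (-0.36 ± 0.07, adjusted p = 0.000398) and at Day 15 (-0.46 ± 0.07, adjusted p = 1.87e-05), with no overlap at either day, and the Day 15 call was lost with RIN as a covariate (-0.28, adjusted p = 0.0723). Stretches of its longest transcript of at least 300 bases are at least 97% identical to 37 other annotated genes, so its reads may have been divided among copies, and the same holds for 4 other genes with Bnip3, 3 with Pgk1, 2 with Eno1 and 1 each with Gpi1, Tpi1, Pgam1, Pkm and Ldhb.

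**Figure D2:**
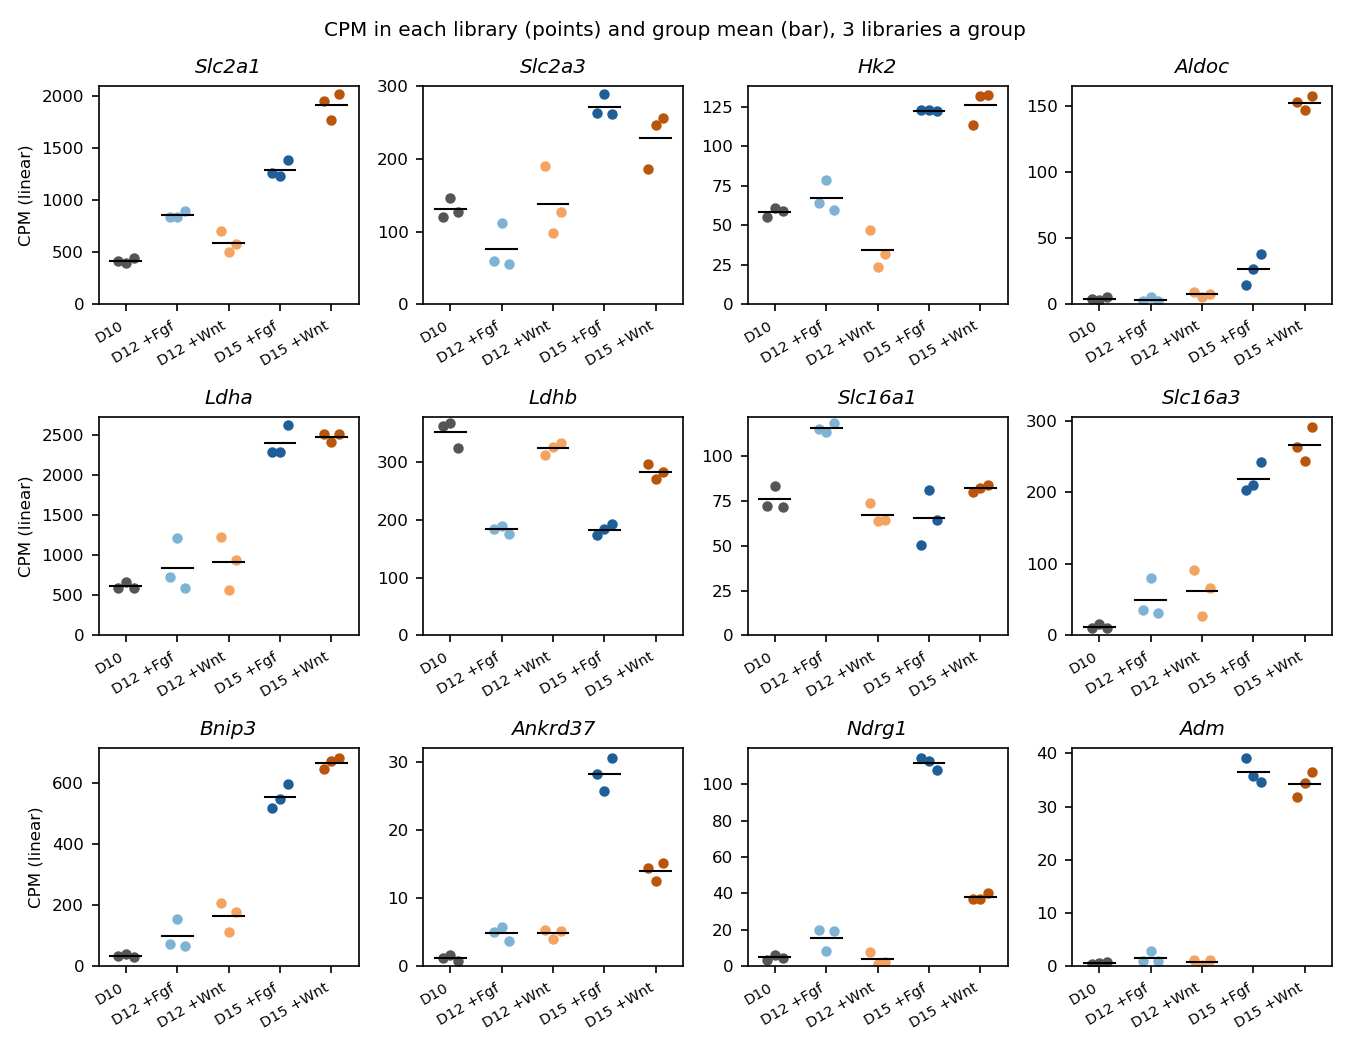
CPM of 12 genes in each library (points, 3 per group) with the group mean (bar), on linear axes that start at 0 and differ between panels. Ldha, Slc16a3, Bnip3 and Adm stand highest at Day 15 in both stimulations, Aldoc stands highest in Day 15 +Wnt, and Ankrd37 and Ndrg1 in Day 15 +Fgf.

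For lactate dehydrogenase the ratio of transcripts moved towards the A subunit, the form that favours lactate from pyruvate, over the B subunit, which favours the reverse. Ldha (chr7:46841475-46855627, plus strand) was at 589, 661 and 593 CPM in Day 10 tissue, 722, 1219.6 and 593 in Day 12 +Fgf and 1229, 561 and 937 in Day 12 +Wnt. At Day 15 Ldha stood at 2292, 2291 and 2621 in +Fgf and 2515, 2409.6 and 2512 in +Wnt. All Day 15 libraries were above all earlier ones, by 1.57 ± 0.23 in +Fgf (adjusted p = 2.15e-05) and 1.52 ± 0.23 in +Wnt (adjusted p = 1.91e-05), and at Day 15 the stimulations differed by -0.05 ± 0.23 (95% interval -0.54 to 0.44). At Day 12 the libraries of each stimulation overlapped those of Day 10, and neither comparison passed (adjusted p = 0.16 in +Fgf and 0.0741 in +Wnt). Without Day 12 +Fgf replicate 3 the former passed (0.61, adjusted p = 0.0395), and without Day 12 +Wnt replicate 2 the latter did (0.81, adjusted p = 0.00306).

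Ldhb (chr6:142490249-142507957, minus strand) was at 363, 368 and 325 CPM in Day 10 tissue, 185, 189 and 176 in Day 12 +Fgf and 312, 327 and 333 in Day 12 +Wnt. At Day 15 Ldhb stood at 173, 184 and 193 in +Fgf and 297, 270.3 and 283 in +Wnt. It fell in Day 12 +Fgf with no overlap (-0.94 ± 0.05, adjusted p = 1.06e-09) and its change from there to Day 15 did not pass (95% interval -0.12 to 0.11). In +Wnt it fell by 0.19 ± 0.05 on the log2 scale from Day 12 to Day 15 (adjusted p = 0.00475), which was not called under quantile normalization. The ratio of Ldha to Ldhb in CPM, in which gene length cancels between groups, was 1.63, 1.80 and 1.83 at Day 10, 3.91, 6.44 and 3.37 in Day 12 +Fgf and 3.94, 1.72 and 2.82 in Day 12 +Wnt. At Day 15 it was 13.3, 12.5 and 13.6 in +Fgf and 8.48, 8.92 and 8.89 in +Wnt, with no overlap between them. Such ratios and shares are given as values without a test.

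Pyruvate dehydrogenase kinases block the entry of pyruvate into the citric acid cycle, and Pdk1 (chr2:71873224-71903858, plus strand) is the member known as a HIF target. Pdk1 was at 142, 128 and 129.7 CPM in Day 10 tissue, 103, 138 and 77.4 in Day 12 +Fgf and 157, 109 and 130.4 in Day 12 +Wnt. At Day 15 Pdk1 stood at 209, 222 and 246 in +Fgf and 243, 262 and 249 in +Wnt. It rose from Day 12 to Day 15 in +Fgf (1.12 ± 0.15, adjusted p = 7.95e-06) and in +Wnt (0.94 ± 0.15, adjusted p = 3.24e-05), while its fall in Day 12 +Fgf (-0.37 ± 0.15, adjusted p = 0.0472) was lost under 12 of 18 alternatives, among them leaving out any of 5 libraries. Pdk2 rose at each step, from 12.9 ± 0.964 CPM at Day 10 to 47.3 ± 2.18 in Day 15 +Fgf and 53.6 ± 4.98 in Day 15 +Wnt. Pdk3 changed by 0.06 ± 0.06 and -0.08 ± 0.06 from Day 12 to Day 15, neither of which passed. Of the bifunctional enzymes that set fructose bisphosphate, a signal that speeds phosphofructokinase, Pfkfb3 rose from Day 12 to Day 15 by 1.61 ± 0.17 in +Fgf and 1.53 ± 0.17 in +Wnt. Pfkfb4 was higher at Day 12 than at Day 10 in +Fgf (0.29 ± 0.09, adjusted p = 0.013) and in +Wnt (0.51 ± 0.09, adjusted p = 0.000169). The former was lost without Day 12 +Fgf replicate 1 (0.24, adjusted p = 0.0649) and with RIN as a covariate (0.22, adjusted p = 0.217). Its changes to Day 15, 0.22 ± 0.09 and -0.01 ± 0.09, did not pass (adjusted p = 0.0504 and 0.913), though the first passed under 8 of 18 alternatives, among them leaving out Day 12 +Fgf replicate 1 (0.27, adjusted p = 0.0362) or Day 15 +Fgf replicate 2 (0.27, adjusted p = 0.0417).

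Of the transporters that carry lactate, Slc16a3 (MCT4, chr11:120948480-120960868, plus strand), the exporter of strongly glycolytic cells, is given first. It was at 10.6, 15.4 and 9.78 CPM in Day 10 tissue, 35.7, 80.1 and 30.6 in Day 12 +Fgf and 91.8, 27.7 and 66.5 in Day 12 +Wnt. At Day 15 Slc16a3 stood at 203, 209 and 242 in +Fgf and 263, 243 and 291 in +Wnt. Each group of Day 12 lay above Day 10 and each group of Day 15 above both groups of Day 12. The rises to Day 12 were 1.90 ± 0.35 in +Fgf (adjusted p = 0.000239) and 2.21 ± 0.35 in +Wnt (adjusted p = 4.65e-05), followed by rises to Day 15 of 2.28 ± 0.35 in +Fgf and 2.25 ± 0.35 in +Wnt. Its mean CPM in Day 15 against Day 10 was 18.3-fold in +Fgf and 22.3-fold in +Wnt. The difference between stimulations at Day 15 was -0.29 ± 0.35 (adjusted p = 0.483, 95% interval -1.03 to 0.46).

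Slc16a1 (MCT1, chr3:104638668-104658462, plus strand), which carries lactate in either direction and has a higher affinity for it, was at 72.4, 83.4 and 71.7 CPM in Day 10 tissue, 115, 114 and 118 in Day 12 +Fgf and 73.8, 64.0 and 64.5 in Day 12 +Wnt. At Day 15 Slc16a1 stood at 50.3, 81.1 and 64.4 in +Fgf and 79.8, 82.1 and 84.0 in +Wnt. It rose in Day 12 +Fgf with no overlap (0.61 ± 0.12, adjusted p = 0.0003) and fell by 0.85 ± 0.12 on the log2 scale by Day 15 (adjusted p = 9.9e-06), the only member that fell at that step. In +Wnt its change to Day 15 was 0.28 ± 0.12 (adjusted p = 0.0387), a call lost when any of 5 libraries was left out. These changes differed beyond the threshold (-1.13 ± 0.16, adjusted p = 2.87e-05). At Day 15 it was lower in +Fgf than in +Wnt (-0.35 ± 0.12, adjusted p = 0.0122), a call lost without Day 15 +Fgf replicate 1 (-0.18, adjusted p = 0.0857) and with RIN as a covariate (-0.26, adjusted p = 0.356). Slc16a3 to Slc16a1 ratios in CPM rose from 0.146, 0.185 and 0.136 at Day 10 to 4.04, 2.58 and 3.76 in Day 15 +Fgf and 3.30, 2.96 and 3.47 in Day 15 +Wnt.

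Slc16a8 (MCT3, chr15:79251014-79254761, minus strand), the transporter of the mature pigmented epithelium, was at 0.750, 1.27 and 0.382 CPM in Day 10 tissue, 0.380, 0.191 and 0.256 in Day 12 +Fgf and 1.20, 0.626 and 0.331 in Day 12 +Wnt. At Day 15 Slc16a8 stood at 0.737, 0.412 and 0.283 in +Fgf and 1.05, 0.746 and 0.842 in +Wnt. Its highest library had 19 reads, the groups overlapped in most comparisons, and Day 15 +Wnt overlapped Day 10. The fall in Day 12 +Fgf (-0.87 ± 0.35, adjusted p = 0.0435) was lost when any of 4 libraries was left out, when the log2 change was -0.86 to -0.57. It was also lost with RIN as a covariate (-0.70, adjusted p = 0.299) and with a pseudocount of 1 added to CPM (-0.47, adjusted p = 0.0552). Slc16a8 passed the filter on low values in 1 library each of Day 10, Day 12 +Wnt and Day 15 +Wnt. No +Fgf library passed it, so the filter favoured a fall in +Fgf.

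**Figure D3:**
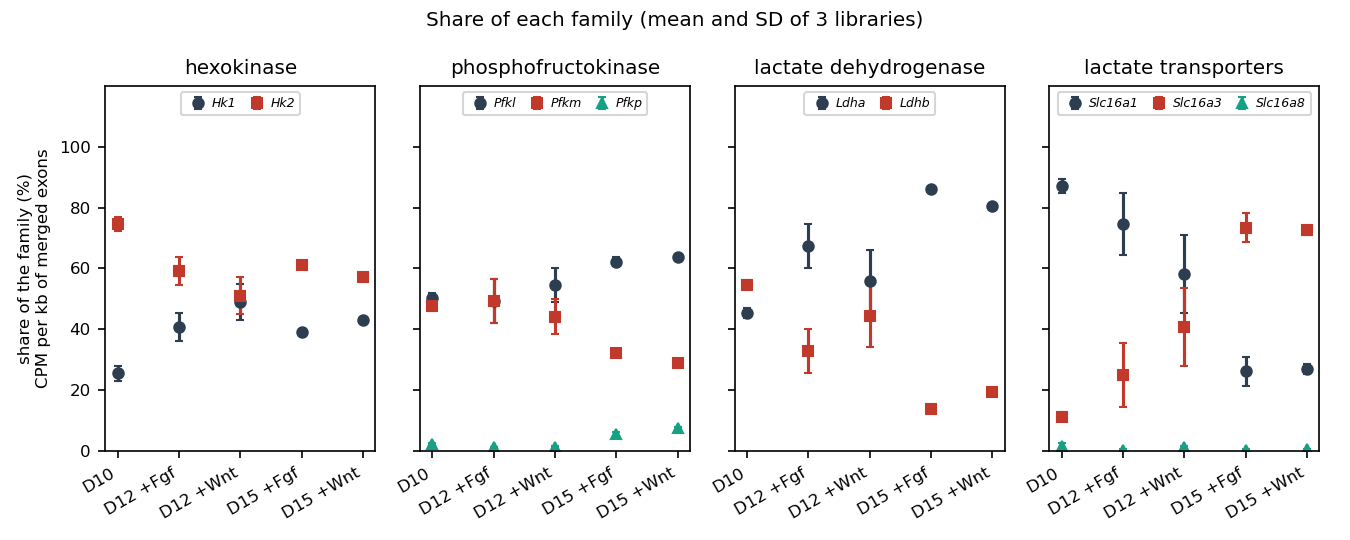
Share of each gene within its family in percent, from CPM per kb of merged exon length (markers, mean of 3 libraries; bars, SD), in the 5 groups. Ldha goes from 45.3% at Day 10 to 86.1% in Day 15 +Fgf and 80.6% in Day 15 +Wnt, and Slc16a3 from 11.3% to 73.4% and 72.5%.

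Merged exon length sets where these shares lie. With the length of the longest transcript Ldha held 55.7% at Day 10 instead of 45.3%, and 90.4% in Day 15 +Fgf instead of 86.1%, and Hk1 held 55.9% in Day 12 +Fgf instead of 40.9%, so the order of Hk1 and Hk2 depended on the length used in every group but Day 10. Slc16a8 stayed between 0.353% and 1.73% of the transporters.

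All 9 hypoxia response genes rose from Day 12 to Day 15 in both stimulations, as did 17% of all tested genes. Car9, which is among them, was admitted to the test by Day 15 +Fgf alone, so the filter favoured its rise there. The rise of Car9 in +Wnt was lost under quantile normalization (0.51, adjusted p = 0.075). The promoters of 7 genes hold different numbers of the core of the HIF response element. Before the values, the 250 bases before a RefSeq start of each of these genes are given. They are RefSeq sequences of GRCm38.p6 on the strand of the gene, 5′ to 3′, with capitals for every match to ACGTG or GCGTG on either strand, among them CACGTG, an E-box that contains ACGTG on both strands and counts as 2 matches. Bnip3, Ankrd37, P4ha1 and Egln3 are the hypoxia response genes that rose at all 4 steps, Slc16a3 is the lactate exporter that did so, and Ldha and Ldhb are the paired subunits.
Bnip3 (chr7:138909507-138909756, minus strand): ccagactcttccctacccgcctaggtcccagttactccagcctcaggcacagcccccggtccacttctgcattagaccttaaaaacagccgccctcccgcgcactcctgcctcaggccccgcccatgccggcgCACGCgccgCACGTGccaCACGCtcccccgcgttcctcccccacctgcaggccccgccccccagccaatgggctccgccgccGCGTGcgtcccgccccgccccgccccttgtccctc
Ankrd37 (chr8:45999851-46000100, minus strand): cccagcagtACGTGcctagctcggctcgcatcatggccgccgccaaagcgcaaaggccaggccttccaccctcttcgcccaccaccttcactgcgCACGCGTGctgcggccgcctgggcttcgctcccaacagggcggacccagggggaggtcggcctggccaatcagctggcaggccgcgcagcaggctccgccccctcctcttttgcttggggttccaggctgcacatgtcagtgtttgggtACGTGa
P4ha1 (chr10:59323046-59323295, plus strand): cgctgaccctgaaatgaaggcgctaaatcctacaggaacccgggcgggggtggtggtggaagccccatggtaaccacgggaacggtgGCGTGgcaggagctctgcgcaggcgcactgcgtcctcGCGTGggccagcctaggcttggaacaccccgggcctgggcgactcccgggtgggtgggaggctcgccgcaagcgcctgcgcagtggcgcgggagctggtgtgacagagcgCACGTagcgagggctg
Egln3 (chr12:54203875-54204124, minus strand): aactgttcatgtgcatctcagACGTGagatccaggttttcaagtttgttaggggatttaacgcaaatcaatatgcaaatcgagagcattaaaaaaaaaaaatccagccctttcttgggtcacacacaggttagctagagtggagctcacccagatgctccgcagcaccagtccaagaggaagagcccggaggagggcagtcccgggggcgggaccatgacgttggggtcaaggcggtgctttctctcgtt
Slc16a3 (chr11:120948817-120949066, plus strand): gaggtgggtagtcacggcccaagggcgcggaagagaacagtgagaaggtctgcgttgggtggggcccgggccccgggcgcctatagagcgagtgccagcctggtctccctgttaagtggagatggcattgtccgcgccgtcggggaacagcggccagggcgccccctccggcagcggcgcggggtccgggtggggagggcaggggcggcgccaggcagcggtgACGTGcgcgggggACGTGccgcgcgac
Ldha (chr7:46845554-46845803, plus strand): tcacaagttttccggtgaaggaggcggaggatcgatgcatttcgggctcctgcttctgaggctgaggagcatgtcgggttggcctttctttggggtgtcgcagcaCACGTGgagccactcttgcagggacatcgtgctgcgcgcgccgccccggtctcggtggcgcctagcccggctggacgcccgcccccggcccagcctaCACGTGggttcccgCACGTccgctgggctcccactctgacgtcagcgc
Ldhb (chr6:142507958-142508207, minus strand): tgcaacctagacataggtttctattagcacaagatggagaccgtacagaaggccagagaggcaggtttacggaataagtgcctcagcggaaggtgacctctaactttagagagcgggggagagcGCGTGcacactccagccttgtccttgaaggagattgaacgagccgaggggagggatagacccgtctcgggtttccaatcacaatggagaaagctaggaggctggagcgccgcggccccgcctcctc

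Bnip3 and Ldha have 5 matches each, Ankrd37 has 4, P4ha1 has 3, Slc16a3 has 2, and Egln3 and Ldhb have 1 each. The window printed for Ldha is 1 of 2 starts in the table, and the other has 1 match. The gene spans given here come from GENCODE and not from RefSeq. The windows of Ankrd37, Slc16a3 and Ldha lie inside those spans, and that of Bnip3 overlaps its span. Promoters were found for 34 of the 36 genes, all but Slc2a3 and Ndrg1, 49 in all since some have several starts, and the core stood in 77.6% of them, against 38.6% of all 32851 promoters in the table and 55.4% of the 13125 promoters of tested genes. CACGTG stood in 12.2% of the members' promoters and in 8.01% of those of tested genes. The median GC content was 60.4% for members and 60.0% for promoters of tested genes. A match describes letters only and is neither a site of binding nor a cause.

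Bnip3 (chr7:138890836-138909519, minus strand), which directs the removal of mitochondria, was at 33.4, 39.7 and 30.6 CPM in Day 10 tissue, 73.3, 153 and 66.8 in Day 12 +Fgf and 208, 112 and 178 in Day 12 +Wnt. At Day 15 Bnip3 stood at 517, 549 and 596 in +Fgf and 644, 671 and 681 in +Wnt. No Day 10 library reached any later one, and no Day 12 library reached any of Day 15. The rises to Day 12 were 1.40 ± 0.24 in +Fgf (adjusted p = 0.000125) and 2.22 ± 0.24 in +Wnt (adjusted p = 8.34e-07), and those to Day 15 were 2.60 ± 0.24 and 2.05 ± 0.24. Day 12 +Fgf and +Wnt differed (-0.82 ± 0.24, adjusted p = 0.0091), a call lost without Day 12 +Fgf replicate 1 or 3 or Day 12 +Wnt replicate 1, when the log2 difference was -0.66 to -0.60. At Day 15 the difference was -0.27 ± 0.24 (95% interval -0.78 to 0.24).

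Ankrd37 (chr8:45996902-46005707, minus strand), an ankyrin repeat gene used as a marker of HIF activity, was at 1.16, 1.67 and 0.841 CPM in Day 10 tissue, 5.01, 5.73 and 3.77 in Day 12 +Fgf and 5.41, 4.04 and 5.23 in Day 12 +Wnt. At Day 15 Ankrd37 stood at 28.3, 25.8 and 30.6 in +Fgf and 14.4, 12.5 and 15.2 in +Wnt. Both groups of Day 12 were above Day 10, with a difference between them of -0.02 ± 0.19 (95% interval -0.42 to 0.38), while at Day 15 all +Fgf libraries were above all +Wnt libraries (1.00 ± 0.19, adjusted p = 0.000179). The change from Day 12 to Day 15 was larger in +Fgf (1.02 ± 0.27, adjusted p = 0.00482). Exons of Lrp2bp and Ufsp2 lie on the opposite strand over this gene, and the strand setting of the counting is not given in the sources used here. Opposite-strand exons of other genes also lie over Slc2a1, Hk1, Gpi1, Pfkm, Pfkp, Aldoa, Tpi1, Gapdh, Bnip3, Car9 and Ndrg1.

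Egln3 (chr12:54178981-54203860, minus strand), the HIF hydroxylase that HIF itself induces, was at 6.95, 6.82 and 6.80 CPM in Day 10 tissue, 9.06, 15.3 and 8.88 in Day 12 +Fgf and 19.5, 10.3 and 16.7 in Day 12 +Wnt. At Day 15 Egln3 stood at 50.8, 58.3 and 60.8 in +Fgf and 89.5, 101 and 101 in +Wnt. It rose to Day 15 by 2.36 ± 0.20 in +Fgf and 2.67 ± 0.20 in +Wnt, and at Day 15 +Wnt was higher without overlap (-0.78 ± 0.20, adjusted p = 0.00218, and -0.25, adjusted p = 0.58 with RIN as a covariate). Its rise in Day 12 +Fgf (0.62 ± 0.20, adjusted p = 0.0133) was lost without Day 12 +Fgf replicate 2 (0.37, adjusted p = 0.0869) and with RIN as a covariate (0.27, adjusted p = 0.44). P4ha1, a collagen hydroxylase, rose at each step to 199 ± 17.6 CPM in Day 15 +Fgf and 228 ± 6.16 in Day 15 +Wnt. Vegfa (chr17:46016993-46032369, minus strand), the secreted factor that draws blood vessels, was at 57.3, 73.9 and 55.6 CPM in Day 10 tissue, 74.9, 92.9 and 58.1 in Day 12 +Fgf and 89.6, 57.0 and 76.8 in Day 12 +Wnt. At Day 15 Vegfa stood at 214, 259 and 236 in +Fgf and 308, 273 and 334 in +Wnt. Day 12 values overlapped those of Day 10, and the rise to Day 15 was 1.67 ± 0.16 in +Fgf (adjusted p = 2.53e-07) and 2.05 ± 0.16 in +Wnt (adjusted p = 1.16e-08). At Day 15 the +Wnt libraries were higher without overlap, but the difference missed the threshold (-0.37 ± 0.16, adjusted p = 0.0551). It passed under 6 of 18 alternatives, among them leaving out Day 15 +Fgf replicate 2 (-0.44, adjusted p = 0.0476) or Day 15 +Wnt replicate 2 (-0.45, adjusted p = 0.0444).

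Adm (chr7:110627661-110629820, plus strand), the vasodilator peptide adrenomedullin, had the largest rise of the 36 genes at both steps from Day 12 to Day 15. It was at 0.477, 0.602 and 0.841 CPM in Day 10 tissue, 1.08, 2.93 and 0.958 in Day 12 +Fgf and 1.13, 0.348 and 1.13 in Day 12 +Wnt. At Day 15 Adm stood at 39.1, 35.8 and 34.6 in +Fgf and 31.9, 34.4 and 36.5 in +Wnt. Its mean CPM rose 22.0-fold in +Fgf and 39.4-fold in +Wnt, log2 changes of 4.37 ± 0.32 and 4.97 ± 0.32, and the Day 15 groups overlapped. Without Day 12 +Fgf replicate 2 the rise in +Fgf was 35.9-fold. Its rise in Day 12 +Fgf (0.94 ± 0.32, adjusted p = 0.0198) was lost without Day 12 +Fgf replicate 2 (0.50, adjusted p = 0.131), without Day 10 replicate 1 (0.81, adjusted p = 0.0708) or with RIN as a covariate (0.48, adjusted p = 0.418).

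Ndrg1 (chr15:66929318-66969640, minus strand), a stress response gene, was at 3.61, 6.35 and 4.81 CPM in Day 10 tissue, 19.8, 8.41 and 19.2 in Day 12 +Fgf and 7.86, 1.39 and 2.45 in Day 12 +Wnt. At Day 15 Ndrg1 stood at 114, 113 and 108 in +Fgf and 37.0, 37.1 and 40.4 in +Wnt. All +Fgf libraries were above all +Wnt libraries at Day 12 (2.17 ± 0.41, adjusted p = 0.000289) and at Day 15 (1.54 ± 0.41, adjusted p = 0.00298). Its rise in Day 12 +Fgf (1.56 ± 0.41, adjusted p = 0.00388) was lost with RIN as a covariate (1.01, adjusted p = 0.176). The Day 12 +Wnt libraries spanned the Day 10 values (-0.60 ± 0.41, adjusted p = 0.212), and from there the rise to Day 15 was 3.52 ± 0.41, against 2.89 ± 0.41 in +Fgf. Without Day 12 +Wnt replicate 1, its highest library of that group, Day 12 +Wnt was below Day 10 (-1.24, adjusted p = 0.0022), the Day 12 difference was 2.81 and the rise in +Wnt 4.16. The difference between the stimulations in the change to Day 15 then passed (-1.26, adjusted p = 0.0164), where with all libraries it was -0.62 ± 0.58, adjusted p = 0.394.

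Ddit4 (chr10:59949669-59951834, minus strand), which restrains mTOR signalling under stress, was at 100, 103 and 93.4 CPM in Day 10 tissue, 101, 173 and 102 in Day 12 +Fgf and 255, 178 and 225 in Day 12 +Wnt. At Day 15 Ddit4 stood at 511, 540.2 and 548 in +Fgf and 589.5, 594 and 637 in +Wnt. It rose in Day 12 +Wnt (1.13 ± 0.15, adjusted p = 9.58e-06), where it was above all Day 12 +Fgf libraries, and at Day 15 the stimulations differed by -0.19 ± 0.15 (adjusted p = 0.291). The larger change to Day 15 in +Fgf (0.65 ± 0.22, adjusted p = 0.0211) was lost without Day 12 +Fgf replicate 1 or 3 or Day 12 +Wnt replicate 1, at 0.52 to 0.53, and with RIN as a covariate (0.95, adjusted p = 0.0521).

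Car9 (chr4:43506966-43513729, plus strand), a surface carbonic anhydrase that handles the acid of glycolytic cells, had no read in any Day 10 library and at most 42 in any library. It was at 0, 0 and 0 CPM in Day 10 tissue, 0.317, 0.573 and 0.256 in Day 12 +Fgf and 0.126, 0 and 0.0662 in Day 12 +Wnt. At Day 15 Car9 stood at 2.58, 2.88 and 2.54 in +Fgf and 0.496, 0.373 and 0.421 in +Wnt. For groups at or near 0, 3 reads per library were taken as the floor. It passed the filter on low values through Day 15 +Fgf alone, where it was at least 12.6-fold higher than that floor at Day 10 and 6.21-fold higher than in Day 15 +Wnt. Because that group alone admitted it, the filter favoured its calls of being high there. These calls are counted with those of the other members, but their adjusted p is not given. Day 12 +Fgf was at least 1.81-fold higher than the floor at Day 10 and at least 1.92-fold higher than that of Day 12 +Wnt, where 0 to 2 reads were counted, and Day 15 +Wnt was at least 2.16-fold higher than Day 12 +Wnt. Fitted changes of this gene against the groups at the floor depend on the pseudocount of 0.3, and the difference in the change to Day 15 was not called with a pseudocount of 0.05, with RIN as a covariate or by edgeR or DESeq2 on recovered reads.

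The Day 12 replicates lay further apart, at the median, for these genes than for all tested genes. The highest library was a median of 1.42 times the lowest over the 36 genes in Day 12 +Fgf, and 1.43 times over the 35 without a 0 in Day 12 +Wnt, against 1.12 and 1.13 over all tested genes. In the other groups the members' median was between 1.09 and 1.13, and that of all tested genes between 1.12 and 1.16. Replicate 2 of Day 12 +Fgf was the highest of its group for 27 of the 36 genes, and for 32.9% of all genes. Replicate 1 of Day 12 +Wnt was the highest for 33, against 35.8% of all genes, and replicate 2 the lowest for 29, against 29.8%. Ndrg1 had the opposite order in +Fgf, where replicate 2 was at 8.41 CPM and the other two at 19.8 and 19.2.

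**Figure D4:**
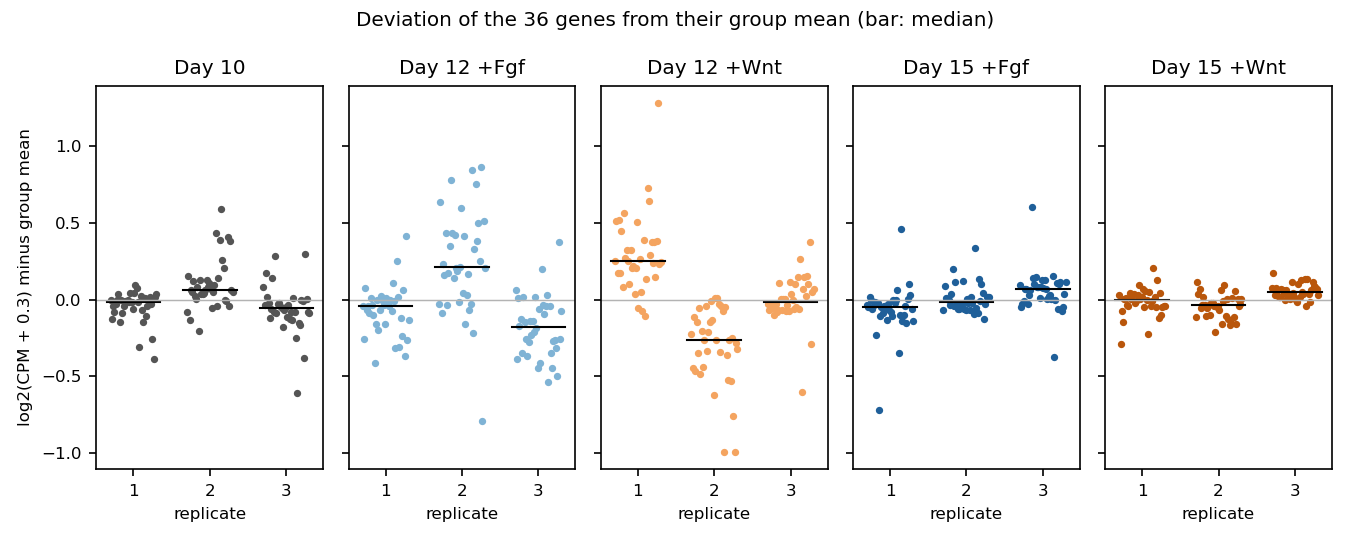
Deviation of each of the 36 genes (points) from its group mean in log2(CPM + 0.3), by replicate number within each of the 5 groups, with the median of the 36 genes (bar). In Day 12 +Fgf replicate 2 lies mostly above 0, and in Day 12 +Wnt replicate 1 lies mostly above and replicate 2 mostly below 0.

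Without Day 12 +Fgf replicate 2 the number of members called in Day 15 against Day 12 +Fgf was 32, and without Day 12 +Wnt replicate 1 or 2 it was 33 or 31 in Day 15 against Day 12 +Wnt. Between the stimulations at Day 12 it went from 21 to 25 without Day 12 +Fgf replicate 2, to 19 without Day 12 +Wnt replicate 1 and to 27 without Day 12 +Wnt replicate 2.

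Tissues of the same age were compared to ask how the stimulations differ, and they split the genes. At Day 12, 7 members were higher in +Fgf and 14 lower (26.3% and 25.2% of all tested genes, 51.5% in either direction), with a median log2 difference of -0.27 where that of all genes was -0.002. The higher ones were Slc2a1, Hk1, Hk2, Eno1, Slc16a1, Car9 and Ndrg1, with both hexokinases among them. Besides Ndrg1, the called log2 differences of widest span were 1.02 ± 0.16 for Hk2 (adjusted p = 5.71e-05) in one direction, and in the other -1.21 ± 0.31 for Aldoc (adjusted p = 0.00396), -0.89 ± 0.23 for Slc2a3 (adjusted p = 0.00378) and -0.84 ± 0.15 for Ddit4 (adjusted p = 0.000231). At Day 15, 4 were higher, namely Eno1, Car9, Ankrd37 and Ndrg1, and 16 lower (38.0% and 30.6%, 68.7% in either direction), with a median of -0.24 where that of all genes was 0.051. Car9 was admitted to the test by Day 15 +Fgf alone, so 3 of the 4 stand apart from that choice. The share called at Day 15, 55.6%, was below the background. Without Day 15 +Fgf replicate 1 it was 15 members instead of 20. With RIN as a covariate 8 of the 20 calls remained, those of Pfkm, Aldoc, Eno1, Eno2, Ldhb, Car9, Ankrd37 and Ndrg1. The RIN listed with the study was lower in every Day 15 +Fgf library than in every Day 15 +Wnt library. RNA integrity and stimulation therefore cannot be told apart at Day 15. Summed CPM of 6 marker genes of dividing cells was higher in Day 15 +Fgf. It ran from 1900 to 1999 there and from 689 to 724 in Day 15 +Wnt, with none of the 6 at the floor. The part of cell division in these differences was not tested.

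The change from Day 12 to Day 15 differed between the stimulations for 12 of the 36 genes, a share under the background. With its sign, the log2 change was higher in +Fgf for 5 and in +Wnt for 7 (27.0% and 20.9% of all tested genes, 47.9% in either direction). Higher in +Fgf were Slc2a3, Pkm, Car9, Ankrd37 and Ddit4, of which Car9 had entered the test through Day 15 +Fgf alone. Higher in +Wnt were Slc2a1, Hk1, Hk2, Aldoc, Eno2, Pdk2 and Slc16a1, of which Slc16a1 fell in +Fgf and rose in +Wnt. Pkm, the pyruvate kinase of most tissues, rose by 0.73 ± 0.09 in +Fgf and 0.34 ± 0.09 in +Wnt (0.39 ± 0.13, adjusted p = 0.0209), a call lost without Day 12 +Fgf replicate 3, Day 12 +Wnt replicate 1 or Day 15 +Fgf replicate 3, when the log2 difference was 0.28 to 0.34. Pdk2 differed by -0.35 ± 0.13, adjusted p = 0.039, lost when any of 7 libraries was left out (-0.35 to -0.25) and with RIN as a covariate (-0.41, adjusted p = 0.178).

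**Figure D5:**
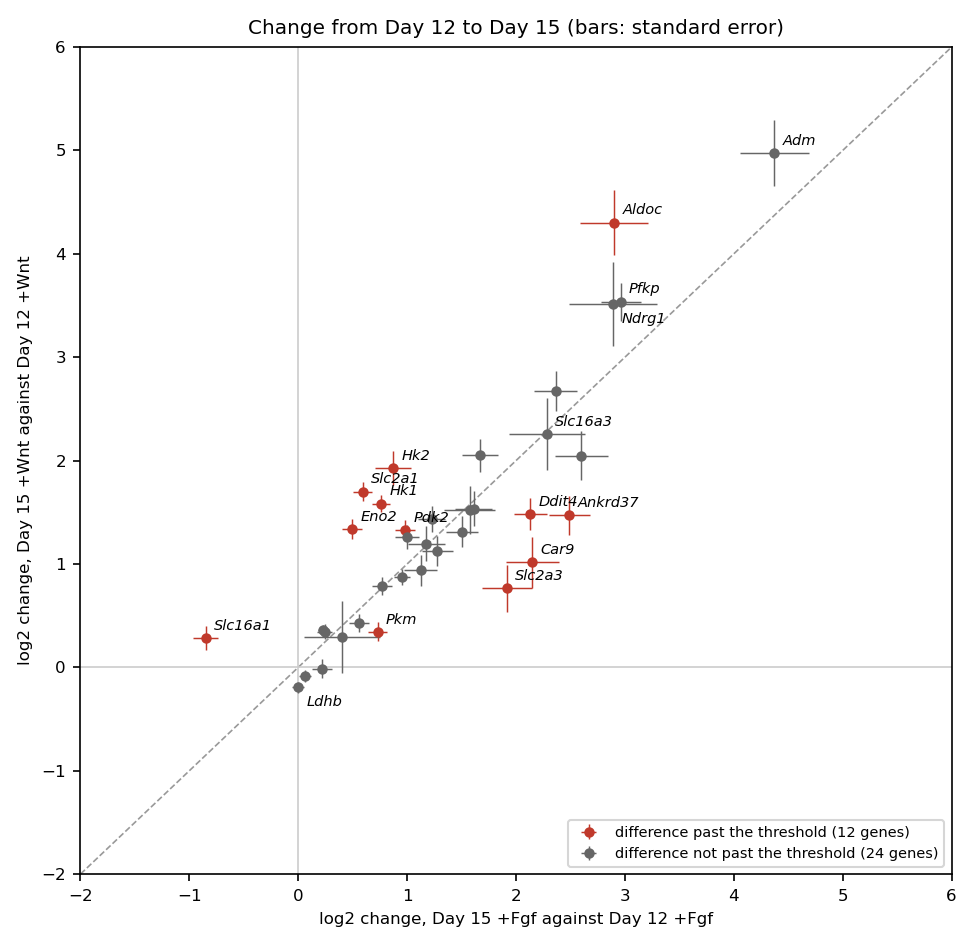
Log2 change from Day 12 to Day 15 of the 36 genes in +Fgf (x axis) and in +Wnt (y axis), with standard errors (bars) and the line of equal change (dashed). The 12 genes whose changes differ beyond the threshold are in red, with Slc2a1, Hk1, Hk2 and Aldoc above the line and Slc2a3, Ankrd37 and Car9 below it.

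Other genes of the HIF pathway, a list of 40 of which all were tested, were counted in the same comparisons. Like the other gene lists here, it was chosen with earlier results of these data known. Its counts are therefore no independent test of the rise of the members. From Day 12 to Day 15, 29 rose and 5 fell in +Fgf and 31 rose and 4 fell in +Wnt, with medians of 0.76 and 0.75. These are 72.5% higher and 12.5% lower in +Fgf and 77.5% higher and 10.0% lower in +Wnt, where all tested genes had 27.2% and 29.9%, and 32.5% and 35.5%. Car12, another surface carbonic anhydrase, rose by 3.37 ± 0.34 in +Fgf and 4.42 ± 0.34 in +Wnt, and Lox, a collagen crosslinker, by 4.09 ± 0.23 in +Wnt. At Day 12 against Day 10 the counts were 15 higher and 6 lower in +Fgf and 20 and 5 in +Wnt, 52.5% and 62.5% in either direction beside 55.7% and 60.2% of all genes. Between the stimulations 7 of the list were higher and 10 lower in +Fgf at Day 12, and 12 and 16 at Day 15, where Angptl4, a secreted lipase inhibitor, had the largest difference (-3.18 ± 0.21, adjusted p = 8.45e-10). The list's share in either direction was 42.5% at Day 12 and 70.0% at Day 15, beside 51.5% and 68.7% of all genes.

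Of the HIF subunits, Hif1a was at 325 ± 4.64 CPM at Day 10, 340.2 ± 15.5 in Day 15 +Fgf and 444 ± 25.4 in Day 15 +Wnt, a rise from Day 12 in +Wnt (0.38 ± 0.05, adjusted p = 9.8e-06) and no call in +Fgf (0.08 ± 0.05, adjusted p = 0.201). Epas1, which encodes HIF-2 alpha, rose from a low level by 1.74 ± 0.36 in +Fgf and 1.91 ± 0.36 in +Wnt, to 25.4 ± 2.82 and 11.9 ± 0.895 CPM. Vhl, whose product marks HIF for destruction, changed by 0.32 ± 0.05, adjusted p = 0.000109 in +Fgf and 0.39 ± 0.05, adjusted p = 8.66e-06 in +Wnt. HIF is set largely by protein stability, which RNA does not show.

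Among 48 other genes of glycolysis and pyruvate use, 39 were tested, and from Day 12 to Day 15 13 rose and 11 fell in +Fgf, and 18 rose and 8 fell in +Wnt, with medians of 0.10 and 0.22. These are 33.3% higher and 28.2% lower in +Fgf, near the 27.2% and 29.9% of all genes, and 46.2% higher and 20.5% lower in +Wnt, beside 32.5% and 35.5%. At Day 12, 11 were higher and 8 lower than at Day 10 in +Fgf and 11 and 14 in +Wnt, and +Fgf was higher than +Wnt for 13 and lower for 10. At Day 15 the counts between stimulations were 13 and 15. In either direction the list's shares in these 4 comparisons were 48.7%, 64.1%, 59.0% and 71.8%, beside 55.7%, 60.2%, 51.5% and 68.7% of all genes. Bsg, the chaperone that carries lactate transporters to the membrane, went from 342 ± 10.6 CPM at Day 10 to 575 ± 18.0 in Day 15 +Fgf and 959.9 ± 61.0 in Day 15 +Wnt, with a larger rise in +Wnt (-0.57 ± 0.07, adjusted p = 4.81e-06). Eno3, the muscle enolase, was lower in +Fgf than +Wnt at Day 15 (-3.01 ± 0.11, adjusted p = 4.61e-13), and so was Slc16a4, another member of the transporter family (-2.51 ± 0.20, adjusted p = 1.22e-08). Of 10 pentose phosphate genes, a side branch that yields NADPH and ribose, 9 were found and tested, and from Day 12 to Day 15 1 rose and 1 fell in +Fgf and 2 rose and 5 fell in +Wnt, 22.2% and 77.8% in either direction beside 57.1% and 68.0% of all genes.

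Vegfa acts on endothelial cells through Kdr, and other genes of endothelial cells were counted beside it. Of 6 endothelial genes, summed to 216 to 267 CPM in Day 15 +Fgf and 21.2 to 28.1 in Day 15 +Wnt, 3 were at 3 reads or fewer in every library of both groups (Cdh5, Emcn and Tie1). Kdr alone stood at 248 ± 27.9 CPM in Day 15 +Fgf and 18.3 ± 3.78 in Day 15 +Wnt. Of 5 red blood cell genes 2 were found, with summed CPM of at most 0.611 in any library.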

How the data were processed

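RNA was sequenced from 15 libraries, 3 for each of 5 groups taken from the sample titles, made with a stranded mRNA kit. Per the labels and the study's methods, the authors aligned reads to mm10 with TopHat2 2.0.8b, counted fragments per gene with Cuffdiff of Cufflinks 2.1.1 and scaled them with edgeR 3.2.4. The deposited values are therefore a read signal per gene, CPM of a scaled library size, whose columns sum to 936418 to 1075448, and the strand setting of the counting is not given in the sources used here. All values were whole multiples of 1 read within a tolerance of 0.02, so the reads could be recovered, 12556998 to 16175450 per library. No value column was left unused (0).

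Genes that reached 1 CPM, counted against the column sum, in 3 or more libraries were tested with limma 3.58.1 (R 4.3.3) on log2(CPM + 0.3), with a trend and 5 group means over all 15 libraries, two-sided. The offset understates changes of low genes. Benjamini-Hochberg adjustment ran over all 13845 tested genes, with a threshold of 0.05. Alternatives were pseudocounts of 0.05 and 1, no filter and a filter of 10 CPM, quantile and median-of-ratios scaling, no trend, RIN as listed with the study, a replicate block, a fit of the compared groups alone, edgeR 4.0.16 and DESeq2 1.42.0 on recovered reads, and leaving out each replicate. Shares within families used CPM per kb of merged exons of GENCODE M21.

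The members and lists were chosen with earlier results of these data known. Values in every library are given for the 3 largest increases and decreases called in each comparison and for Slc2a1, Ldha, Ldhb, Pdk1, Slc16a1, Slc16a3, Slc16a8, Vegfa, Egln3, Ankrd37 and Car9. Other lists are represented by at most 2 genes in each direction per comparison and by Hif1a, Epas1, Bsg and Vhl. Near-identical copies were searched with BLAST 2.17.0.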

Additional observations from a re-analysis of the deposited data

Results flagged for a closer look

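For 12 genes the change from Day 12 to Day 15 differed between the stimulations by the test of that difference itself in limma. The log2 change in +Fgf minus that in +Wnt was 1.15 for Slc2a3, 1.13 for Car9, 1.02 for Ankrd37, 0.65 for Ddit4 and 0.39 for Pkm. Car9 entered the test through the Day 15 +Fgf libraries alone. The difference was -1.40 for Aldoc, -1.13 for Slc16a1, -1.11 for Slc2a1, -1.06 for Hk2, -0.84 for Eno2, -0.82 for Hk1 and -0.35 for Pdk2. All alternatives kept the calls of Ankrd37, Eno2, Hk1, Slc16a1, Slc2a1 and Slc2a3, and 1 or more of them lost each of the other 6. The Day 12 libraries, whose replicates differ most in these genes, enter each of these differences.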

How the results depend on the processing

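With RIN as a covariate the members called went from 20 to 8 between the Day 15 tissues and from 12 to 7 for the difference in change, and Gpi1, lower in Day 15 +Fgf than in Day 15 +Wnt, turned to 0.013 on the log2 scale. RIN did not overlap between the Day 15 tissues, between Day 10 and either tissue of Day 12, or between Day 12 and Day 15 +Fgf. In these comparisons RNA integrity and group cannot be told apart, and the cause of the lost calls was not tested. Of 252 log2 changes of single genes, 28 missed the threshold with RIN. Under the other alternatives that keep all libraries, 2675 of 2758 log2 changes kept their direction and their side of the threshold, 37 missed the threshold, 46 newly passed it and 0 turned. With 1 library left out, 1612 of 1728 kept both, 67 missed the threshold, 49 newly passed it and 0 turned, and the members called ranged from 19 to 25 in Day 12 +Fgf against Day 10, 18 to 23 in Day 12 +Wnt against Day 10, 32 to 33 in Day 15 against Day 12 +Fgf, 31 to 33 in Day 15 against Day 12 +Wnt, 18 to 27 between the stimulations at Day 12, 15 to 21 at Day 15 and 10 to 15 for the difference in change. Deviations of same-numbered libraries had r between -0.253 and 0.215 across genes, and not every library was closest to its own number. The main fit therefore did not treat the numbers as pairs. With 3 libraries per group, this check cannot exclude a pairing. A fit with the replicate block called 21, 20, 33, 33, 22, 20 and 12 members in these comparisons, in that order. Low counts limit Car9 and Slc16a8, with at most 42 and 19 reads in a library. Shares within a family shift with the length used, as given for Ldha and Hk1.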

Other observations

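Other cell types were followed through their markers in the same libraries. Summed CPM of 8 genes of retinal ganglion cells and early neurons ran from 123 to 192 at Day 10, from 1834 to 1978 in Day 15 +Fgf and from 1367 to 1689 in Day 15 +Wnt. Of 7 photoreceptor genes the sum was 145 to 180.0 in Day 15 +Fgf and 5.65 to 6.41 in Day 15 +Wnt, with 2 and 3 of the 7 at 3 reads or fewer. Sums over 7 mesenchymal and fibroblast genes were 101 to 124 and 350.2 to 436, and over 5 pluripotent cell genes 1.03 to 7.69 and 9.49 to 40.0. The part of these cell types in the levels of glycolysis and hypoxia genes was not tested.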
